A study of Mus musculus with 18 samples.

Results

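The 38 genes described here are the 13 protein genes of the mouse mitochondrial genome and 25 nuclear genes whose products copy, transcribe, process and translate that genome. They were chosen by symbol, and all 38 were found among the 19094 protein-coding genes of the deposited count table. Heart cells came from mice aged 16 months, 3 carrying a Bag3-P209L transgene (Tg+) and 3 age-matched Bag3-WT mice. Cardiomyocytes, the contracting cells of the heart, and cardiac fibroblasts, which make its matrix, were isolated from each heart, and RNA captured on oligo(dT) beads was sequenced. A mouse is represented by 1 sample of fibroblasts and 2 of cardiomyocytes (rep1 and rep2, summed here), each called a library below. So 18 samples became 12 columns, and the mouse was the replicate. The labels do not say if rep1 and rep2 are separate libraries or 2 rounds of sequencing of the same library. BAG3 is a co-chaperone of the sarcomere, and P209L exchanges a proline of it for a leucine. Nothing in the sources used here gives the promoter of the transgene, the cells in which it is active, its species or the host strain. Values by mouse are listed in the order Tg+ mouse 1, 2 and 3, then Bag3-WT mouse 1, 2 and 3.

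The mitochondrial genome is a small circle present in many copies per cell. Its protein genes encode core subunits of the respiratory chain: the mt-Nd genes belong to complex I, mt-Cytb to complex III, the mt-Co genes to complex IV, and mt-Atp6 and mt-Atp8 to the ATP synthase. Both strands are transcribed as long RNAs by the polymerase POLRMT with TFAM and TFB2M at the promoter, and cut into single messages where tRNAs lie between them. Every protein that does this work is made from nuclear genes and imported. Heart muscle is densely packed with mitochondria.

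The circle holds its genes with little space between them, and some share bases, which matters for counting reads. In GRCm38 coordinates with the GENCODE M21 annotation, mt-Atp8 is a single exon of 204 bases on the plus strand at chrM:7766-7969, and its last 43 bases are also the first of mt-Atp6 (chrM:7927-8607). mt-Nd4l, 297 bases at chrM:9877-10173, shares its last 7 bases with mt-Nd4 (chrM:10167-11544). Both short genes are shown whole, with the shared bases in capitals.
mt-Atp8: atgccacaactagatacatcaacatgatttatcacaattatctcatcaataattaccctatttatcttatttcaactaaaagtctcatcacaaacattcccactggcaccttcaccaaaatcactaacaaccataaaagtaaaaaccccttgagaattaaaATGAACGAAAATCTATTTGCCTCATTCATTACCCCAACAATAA
mt-Nd4l: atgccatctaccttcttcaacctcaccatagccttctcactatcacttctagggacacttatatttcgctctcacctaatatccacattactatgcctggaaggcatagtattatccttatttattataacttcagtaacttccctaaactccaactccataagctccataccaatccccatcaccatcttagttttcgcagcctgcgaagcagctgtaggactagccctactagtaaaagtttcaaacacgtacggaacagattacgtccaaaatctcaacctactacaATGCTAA
A further 14 bases are shared by mt-Nd5 and mt-Nd6 on opposite strands, and 1 base by mt-Atp6 and mt-Co3. 3 genes end 1 base past their last whole codon, on a T, and their stop codon is known to be completed by the poly(A) tail that MTPAP adds. The last 30 bases of these 3 genes are shown because capture on oligo(dT) depends on that tail. The T is in capitals.
mt-Co3: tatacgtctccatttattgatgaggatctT
mt-Nd4: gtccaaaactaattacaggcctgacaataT
mt-Cytb: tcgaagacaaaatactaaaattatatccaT

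Of the 25 nuclear genes, 24 had a promoter window in the RefSeq table for GRCm38.p6 (250 bases before to 50 bases after the start), 1 window each. 4 motifs were searched on both strands. The ETS motif CCGGAAG, the core bound by GABPA (NRF-2), stood in 14 of the 24 windows (58.3%), against 18.1% of the 10590 tested nuclear genes with a window and 8.86% of all 32851 windows. GCGCANGCG, an NRF1 motif, stood in 4 of 24 (16.7%) against 14.1% of tested genes, in Tfb2m, Polrmt, Ptcd1 and Supv3l1. AANATGGC, a YY1 motif, stood in 3 of 24 (12.5%) against 9.31%, and TCAAGGTCA, the motif of the estrogen-related receptors, in 0 of 24 against 0.302%. A match is a run of letters and not a measured binding site. The ETS motif was in the windows of 5 of the 7 nuclear genes that differed between the cell types below (Tufm, Fastk, Mtif2, Ptcd2 and Polg), while the windows of Tsfm and Tfb1m held none of the 4 motifs. The windows of 4 of these genes are shown with the motif in capitals: Tufm at chr7:126487105-126487404 (plus strand), Fastk at chr5:24445186-24445485 (minus), Mtif2 at chr11:29526147-29526446 (plus) and Polg at chr7:79466224-79466523 (minus).
Tufm: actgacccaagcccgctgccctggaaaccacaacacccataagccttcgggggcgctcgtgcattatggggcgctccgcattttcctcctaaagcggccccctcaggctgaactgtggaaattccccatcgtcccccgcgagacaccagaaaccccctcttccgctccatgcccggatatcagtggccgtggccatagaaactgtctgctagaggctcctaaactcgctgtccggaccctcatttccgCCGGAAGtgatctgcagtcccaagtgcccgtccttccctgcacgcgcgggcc
Fastk: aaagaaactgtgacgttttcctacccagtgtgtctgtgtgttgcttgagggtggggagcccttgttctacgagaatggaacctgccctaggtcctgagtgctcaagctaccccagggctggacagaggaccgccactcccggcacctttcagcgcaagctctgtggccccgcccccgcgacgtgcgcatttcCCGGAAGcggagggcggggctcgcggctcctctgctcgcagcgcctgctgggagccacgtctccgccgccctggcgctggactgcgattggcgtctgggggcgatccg
Mtif2: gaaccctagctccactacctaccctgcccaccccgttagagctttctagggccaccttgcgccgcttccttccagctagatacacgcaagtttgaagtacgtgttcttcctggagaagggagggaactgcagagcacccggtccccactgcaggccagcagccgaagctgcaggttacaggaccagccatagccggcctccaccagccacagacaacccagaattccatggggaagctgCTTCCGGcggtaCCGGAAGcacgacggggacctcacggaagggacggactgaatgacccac
Polg: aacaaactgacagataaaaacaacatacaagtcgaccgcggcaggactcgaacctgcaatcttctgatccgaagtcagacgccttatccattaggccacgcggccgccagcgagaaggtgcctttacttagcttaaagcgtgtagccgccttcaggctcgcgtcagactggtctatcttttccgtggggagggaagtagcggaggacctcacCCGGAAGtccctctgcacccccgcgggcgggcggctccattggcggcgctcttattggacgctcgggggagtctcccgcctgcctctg

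The 12 columns held 10861399 to 17171503 counts in cardiomyocytes and 17265088 to 61291983 in fibroblasts. Counts on nuclear genes were 2261653 to 7793062 and 11309883 to 15811137, so that 3 counts stand for 0.385 to 1.33 CPM of nuclear counts (nuclear CPM) in cardiomyocytes and 0.190 to 0.265 in fibroblasts. These limits cover counting error only. Bag3 itself did not check the genotype labels: its log2 fold change (Tg+ against Bag3-WT) was −0.26 (SE 0.48, edgeR adjusted p = 1.00) in cardiomyocytes and 0.15 (SE 0.36, adjusted p = 0.938) in fibroblasts, and the sources used here do not say if transgene reads went into the Bag3 row. The cardiomyocyte label was borne out only in relative terms. All 10 cardiomyocyte markers were higher in cardiomyocyte columns (median log2 fold change 1.92), though all 10 were also present in fibroblast columns. Within the cardiomyocyte columns of Tg+ mouse 1 and Bag3-WT mice 1 and 3, fibroblast markers summed to 11893, 21243 and 16439 nuclear CPM. Cardiomyocyte markers there summed to less (4090, 8656 and 7865). In the cardiomyocyte columns of the other mice, cardiomyocyte markers had the larger sum. The fibroblast label was not clearly borne out: the 10 fibroblast markers summed to 1646 to 5712 nuclear CPM in fibroblast columns and to 6188 to 21243 in cardiomyocyte columns. The collagen gene Col1a1 (mean 5419 nuclear CPM in cardiomyocyte and 717 in fibroblast columns, log2 2.52) was higher in cardiomyocyte columns, as was Col1a2 (1926 against 642, log2 1.38). Tcf21 was lower there (−0.98), and 6 of the 10 had a log2 fold change below 0 (median −0.30 against −0.03 over all nuclear genes tested). Either without Tg+ mouse 3 or with library size alone, 3 of the 10 were higher and 0 lower. The 10 macrophage markers summed to 5077 to 14228 in fibroblast columns and 1053 to 4638 in cardiomyocyte columns, and all 10 were lower in cardiomyocytes. Endothelial markers overlapped (1883 to 5137 in cardiomyocyte and 1752 to 3901 in fibroblast columns), with 0 of 8 higher and 2 lower, or 3 higher and 2 lower without Tg+ mouse 3, and all 6 smooth muscle markers were higher in cardiomyocyte columns (770 to 4449 against 203 to 1668). In animal codes with the letter F (Tg+ mice 1 and 3, Bag3-WT mouse 1), fibroblast columns held 0 counts of the Y-linked Ddx3y, but the cardiomyocyte column of Tg+ mouse 3 held 61.8. Of Eif2s3y, also Y-linked, the 3 cardiomyocyte columns with F held 24, 171.7 and 18.6, where the fibroblast columns of the same mice held 0. Of these mice Tg+ mouse 3 held the most of both, and some results are also given without it. In bulk samples such as these, fewer cells of a type and less RNA per cell cannot be told apart, and what the cell mixture adds to the differences below was not tested.

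Genes of the mitochondrial genome took most of the cardiomyocyte counts. Their share of all counts was 51.7, 74.7, 74.8, 85.5, 85.2 and 72.8% in cardiomyocytes and 36.6, 16.7, 39.2, 74.2, 25.1 and 31.5% in fibroblasts. The share was higher in cardiomyocytes in 6 of 6 mice, though the fibroblasts of Bag3-WT mouse 1 exceeded the cardiomyocytes of Tg+ mouse 1 and Bag3-WT mouse 3. The means were 74.1 ± 12.3% and 37.2 ± 19.9% (SD, n = 6), and the difference within mice was 36.9 ± 20.7 percentage points (range 11.3 to 60.1; exact sign-flip test, two-sided, p = 0.03125, the smallest that 6 mice allow). Expressed per nuclear count, mitochondrial counts were 1.86, 14.8, 4.60, 2.05, 17.2 and 5.83 times higher in cardiomyocytes than in fibroblasts of the same mouse. The gap was thus smallest in the 3 mice with the letter F (1.86, 4.60 and 2.05) and larger in the 3 with the letter M. The 2 cardiomyocyte libraries of a mouse differed by only 0.0773 to 1.78 percentage points.

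**Figure D1:**
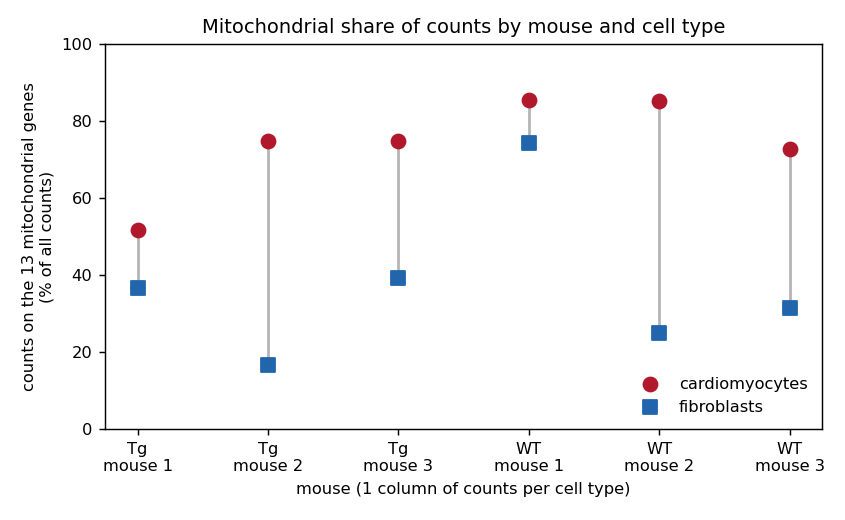
Percent of all counts on the 13 mitochondrial genes (vertical axis) for each of the 6 mice (horizontal axis), 1 value per mouse and cell type. Cardiomyocytes lie above fibroblasts in every mouse, by 11.3 percentage points in Bag3-WT mouse 1 and by 60.1 in Bag3-WT mouse 2.

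The mitochondrial share moved with the level of cardiomyocyte markers. In fibroblast columns the 10 cardiomyocyte markers (among them Myh6, Tnnt2 and Actc1, all sarcomere genes) summed to 1530, 1061, 2169, 2855, 1248 and 1456 nuclear CPM, and their order was the order of the mitochondrial share. Over the 6 mice Pearson's r was 0.957 (exact permutation p = 0.00139, adjusted 0.0139 over 10 relations of share and marker list) and Spearman's rho was 1 (p = 0.00278, adjusted 0.0278). Without the mice farthest from the median (Bag3-WT mouse 1 and Tg+ mouse 3), r was 0.994. In cardiomyocyte columns the sums were 4090, 8335, 6790, 8656, 11263 and 7865 nuclear CPM. There r was 0.902 (exact permutation p = 0.0208, adjusted 0.104) and rho 0.771 (p = 0.103, adjusted 0.514). Without Tg+ mouse 1 and Bag3-WT mouse 2, r was 0.569, so that the relation in cardiomyocytes rested on those mice. The other 8 relations had adjusted p-values for r of 0.366 or more. Within the letter F, and within M, the order of the 3 mice by cardiomyocyte marker sum was the order of their mitochondrial share in both cell types. With 3 mice per letter no correlation was computed within a letter.

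**Figure D2:**
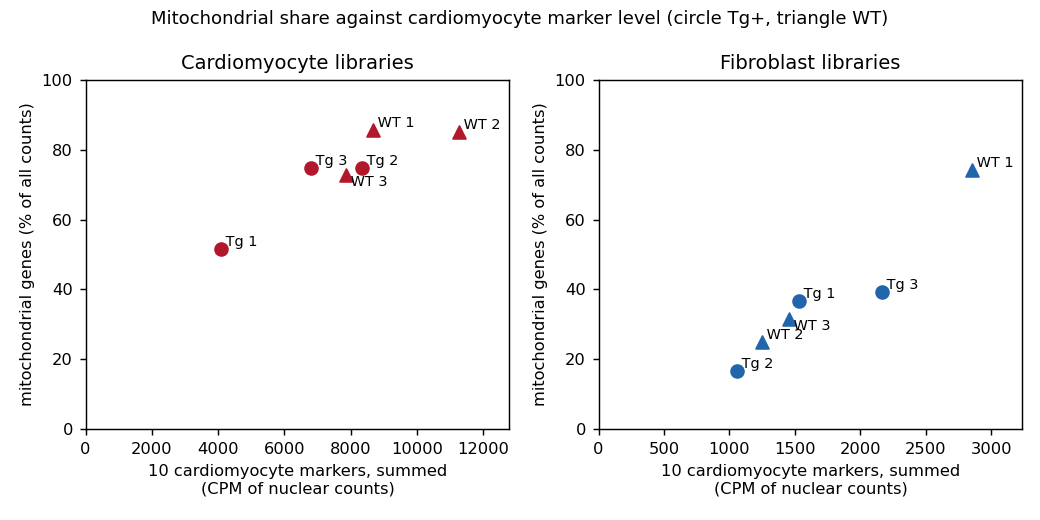
Percent of all counts on mitochondrial genes against the summed level of 10 cardiomyocyte markers in CPM of nuclear counts, 1 point per mouse, in cardiomyocyte columns (left) and fibroblast columns (right). In fibroblasts the points rise from Tg+ mouse 2 (1061 CPM, 16.7%) to Bag3-WT mouse 1 (2855 CPM, 74.2%).

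Each of the 13 mitochondrial genes was higher in cardiomyocytes when tested among all genes within mice (edgeR quasi-likelihood test, Benjamini-Hochberg adjusted over 13891 genes, of which 19.7% were called higher and 24.9% lower, 44.6% in all, at adjusted p < 0.05). Their median log2 fold change was 2.08, a 4.22-fold difference, against −0.04 over all genes tested. With library size alone in place of TMM scaling the median was 1.16 against −0.95 over all genes, of which 457 were called higher and 6616 lower. mt-Nd3, a small complex I subunit, stood highest at 3.49 (SE 0.55, adjusted p = 5.84e-04), and mt-Atp8 lowest at 1.73 (SE 0.54, adjusted p = 0.0239). The other complex I genes had values of 2.04 (mt-Nd1 and mt-Nd2) to 2.12 (mt-Nd5), including mt-Nd6, the only one read from the minus strand, at 2.08. Of complex IV, mt-Co1 was at 2.02, mt-Co2 at 1.95 and mt-Co3 at 2.16. mt-Cytb was at 1.90 and mt-Atp6 at 2.20. As a share of all counts, mt-Atp8 was lower in cardiomyocytes in 2 mice. These were Tg+ mouse 1 (0.130 against 0.140%) and Bag3-WT mouse 1 (0.204 against 0.351%). mt-Co2 was lower in Bag3-WT mouse 1 (6.63 against 6.70%), and the other genes were higher in all 6 mice. The adjusted p of mt-Atp8 exceeded 0.05 with library size alone and when Tg+ mouse 2, Tg+ mouse 3, Bag3-WT mouse 2 or Bag3-WT mouse 3 was left out, and the other 12 genes kept their call in each of 12 alternatives.

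Within the mitochondrial counts, most genes kept nearly the same share in both cell types. mt-Co1, the catalytic subunit of complex IV, took 34.8 ± 1.84% of mitochondrial counts in cardiomyocytes and 35.2 ± 1.30% in fibroblasts (SD, n = 6). Per kilobase of gene, as CPM of all counts, mt-Co1 also had the highest level (167136 ± 30738 in cardiomyocytes, 83696 ± 42170 in fibroblasts) and mt-Nd3 the lowest (7055 ± 3238 and 1321 ± 833). 3 genes moved the same way in all 6 mice. mt-Nd3 took 0.268, 0.262, 0.339, 0.236, 0.261 and 0.634% of mitochondrial counts in cardiomyocytes and 0.116, 0.0955, 0.217, 0.105, 0.0983 and 0.0942% in fibroblasts. All 6 cardiomyocyte values exceeded all 6 fibroblast values, with a ratio within mice of 1.57 to 6.74 (median 2.48). mt-Cytb took less in cardiomyocytes, 11.3 ± 0.655% against 12.4 ± 0.736% (ratio 0.780 to 0.975, median 0.934). mt-Atp6 took slightly more (ratio 1.00 to 1.37, median 1.08). Bag3-WT mouse 3 gave the most extreme ratio for each of these 3 genes. mt-Atp8 took less in 5 of 6 mice (median ratio 0.705), with Tg+ mouse 3 at 1.57. Because mt-Atp8 and mt-Atp6 share bases, their reads cannot be fully told apart, and their joint share was higher in cardiomyocytes in 5 of 6 mice. mt-Co2 had a ratio of 0.633 in Bag3-WT mouse 2 and 1.40 in Bag3-WT mouse 3. No test was made on these shares.

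**Figure D3:**
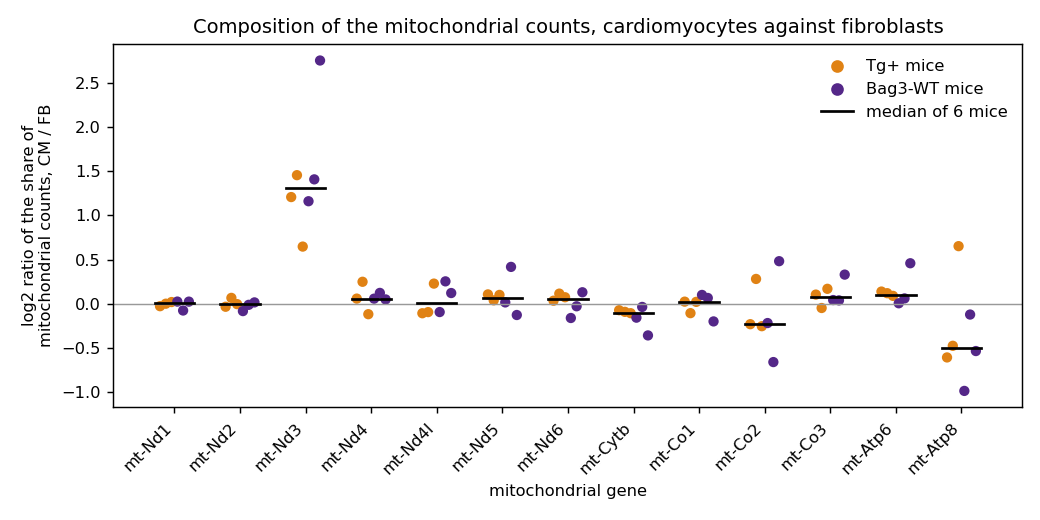
Log2 ratio (cardiomyocyte over fibroblast, same mouse) of each gene's percent of the mitochondrial counts, for the 13 mitochondrial genes. Points are mice and bars are medians of 6 mice. mt-Nd3 lies above 0 in every mouse and mt-Cytb below 0 in every mouse, while mt-Nd1 and mt-Nd2 lie close to 0.

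By genotype, no mitochondrial gene passed the test. In cardiomyocytes the share was 67.1 ± 13.3% in Tg+ and 81.2 ± 7.21% in Bag3-WT mice (SD, n = 3 each), a difference of −14.1 percentage points (exact permutation test, two-sided, p = 0.3, where 3 against 3 mice cannot go below 0.1). The groups overlapped, and without Tg+ mouse 1 the difference was −6.42. In fibroblasts it was −12.8 points (30.8 ± 12.3% against 43.6 ± 26.7%, exact permutation p = 0.6), and 2.54 points in the other direction without Bag3-WT mouse 1. Within the letter of the animal code, cardiomyocyte shares were 63.2% (Tg+, n = 2) and 85.5% (Bag3-WT, n = 1) for F, and 74.7% (n = 1) and 79.0% (n = 2) for M. Fibroblast shares were 37.9% (n = 2) and 74.2% (n = 1) for F, and 16.7% (n = 1) and 28.3% (n = 2) for M. In fibroblasts all 3 F mice had a higher share than all 3 M mice. The 10 cardiomyocyte markers moved with the share, with a median log2 fold change by genotype of −0.62 in cardiomyocytes and −0.42 in fibroblasts (0 of 10 called in either), and their part in the genotype values was not tested.

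Per gene, 0 of 13 were called by edgeR in either cell type, where 0% of all genes tested were called. DESeq2 and limma voom also called 0 of 13. At an unadjusted p under 0.05 edgeR had 0 of 13 in both. Over all genes it had 89 of 12439 in cardiomyocytes and 690 of 13571 in fibroblasts. DESeq2 had 5 of 13 in cardiomyocytes, and its number over all genes was not counted. In cardiomyocytes all 13 log2 fold changes were below 0 under each scaling. Their median was −1.02 against 0.01 over all genes, −0.29 against 0.84 with library size alone, and −1.33 against −0.03 without Tg+ mouse 3. mt-Nd4l had the lowest p (−1.18, SE 0.56, edgeR adjusted p = 1.00). Its share of all counts was 0.623, 0.808 and 0.806% in Tg+ and 1.02, 1.04 and 1.05% in Bag3-WT cardiomyocytes, which do not overlap. The shares of mt-Atp6, mt-Co2 and mt-Atp8 did not overlap either, and those of the remaining mitochondrial genes did. How many of all genes do not overlap was not counted. In fibroblasts the median was −1.45 with all 13 below 0, except that mt-Nd3 was above 0 with library size alone. That median was −0.51 with library size alone, against 0.36 over all genes, and −0.88 with limma voom. The fibroblast median was 0.17 without Bag3-WT mouse 1, with 11 of 13 above 0, and −1.67 without Tg+ mouse 3. mt-Atp8 had the lowest p there (−2.15, SE 0.95, edgeR adjusted p = 0.768), with shares of 0.140, 0.0541 and 0.0587% in Tg+ and 0.351, 0.0873 and 0.117% in Bag3-WT fibroblasts, which overlap. The genotype effect did not pass as different between cell types for any of the 13 (median −0.14; mt-Nd3, −0.95, SE 1.06, had the lowest p, 1.00 after adjustment).

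Of the 25 nuclear genes, 6 were higher and 1 was lower in cardiomyocytes per nuclear count (edgeR within 6 mice, adjusted over 14223 nuclear genes, of which 19.3% were called higher and 24.4% lower, 43.7% in all). Their median log2 fold change was 0.38 against −0.03 over all genes tested. 7 of 25 called is a smaller share than the 43.7% of all genes. By role, 3 of 4 translation factors were higher, 2 of 13 RNA-processing genes, 1 of 5 genes grouped under transcription and 0 of 3 copying genes, of which 1 was lower. The gene called in the transcription group was Tfb1m, whose product methylates ribosomal RNA, and no gene that starts or extends transcription was called. The scaling bears on these counts: with library size in place of TMM the median of all genes shifted from −0.03 to 0.39, that of the 25 genes to 0.80, and 15 were called higher and 0 lower. Among all genes the share of higher calls then rose from 44.1% to 67.9%. The values below are relative to the TMM reference.

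**Figure D4:**
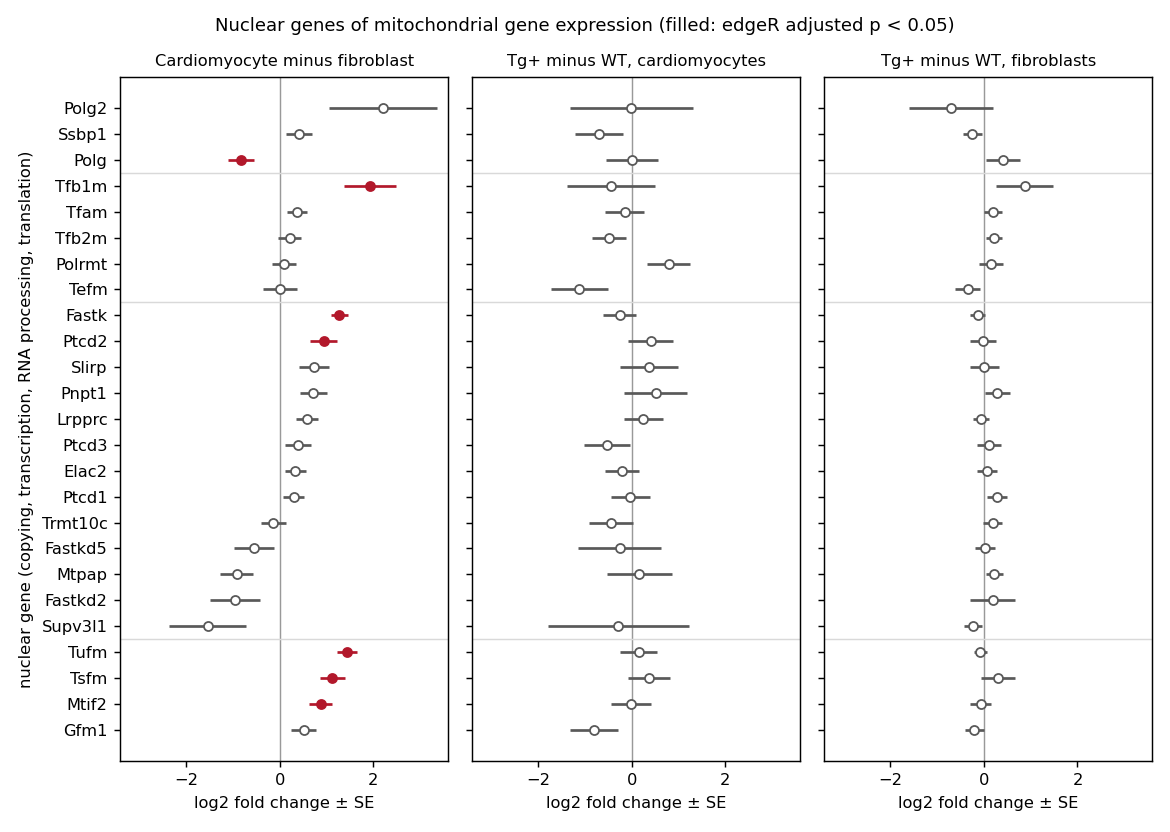
Log2 fold change with its SE for the 25 nuclear genes, grouped by role, for cardiomyocytes against fibroblasts (left) and for Tg+ against Bag3-WT in cardiomyocytes (middle) and fibroblasts (right). Filled points passed edgeR's adjusted p < 0.05. They are 7 genes in the left panel and none in the others, and Fastkd2 was not tested in the middle panel.

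Tufm, the mitochondrial elongation factor Tu that brings charged tRNAs to the ribosome, had 98.6, 86.3, 174.6, 141.2, 81.4 and 99.2 nuclear CPM in cardiomyocytes and 41.1, 39.2, 34.6, 42.4, 42.1 and 42.0 in fibroblasts. The cell types did not overlap, and fibroblast values lay close together. The fold was 2.72 (log2 1.44, SE 0.21, edgeR adjusted p = 2.93e-04). Tsfm, which recharges TUFM with GTP, had 13.5, 11.7, 16.4, 11.6, 12.7 and 7.14 nuclear CPM against 5.66, 4.94, 7.67, 5.35, 7.13 and 2.97. It was higher in cardiomyocytes of all 6 mice (log2 1.13, SE 0.26, adjusted p = 0.00500), although the lowest cardiomyocyte value, of Bag3-WT mouse 3, was below the highest fibroblast value. Mtif2, initiation factor 2, had 15.8, 12.6, 25.1, 22.2, 12.4 and 18.7 nuclear CPM against 10.3, 7.63, 9.18, 11.3, 9.97 and 8.42, without overlap (log2 0.87, SE 0.24, adjusted p = 0.0131). Gfm1, the elongation factor that moves the ribosome along, did not pass (log2 0.51, SE 0.27, adjusted p = 0.142). Per kilobase of the longest coding transcript, Tufm had the highest level of the 25 genes in both cell types (64.7 ± 20.9 and 22.9 ± 1.71 nuclear CPM per kilobase) and Fastk the next.

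Among RNA-processing genes, Fastk, the founding member of the FASTK family of mitochondrial RNA-binding proteins, known to be needed for the mt-Nd6 message, had 41.9, 62.8, 94.1, 71.5, 79.9 and 83.3 nuclear CPM in cardiomyocytes and 26.2, 24.8, 30.5, 32.6, 28.7 and 31.8 in fibroblasts. The groups did not overlap (2.42-fold, log2 1.27, SE 0.18, adjusted p = 2.64e-04). Its relatives Fastkd2 (log2 −0.95, SE 0.54, adjusted p = 0.172) and Fastkd5 (−0.54, SE 0.42, adjusted p = 0.323) did not pass, and Fastkd2 was under 3 counts in 2 cardiomyocyte columns. Ptcd2, a pentatricopeptide repeat protein known to act on the mt-Cytb message, had 18.1, 14.8, 17.4, 10.9, 19.1 and 7.05 nuclear CPM against 8.31, 6.63, 6.63, 10.6, 6.59 and 5.74 (log2 0.94, SE 0.29, adjusted p = 0.0217). All cardiomyocyte values but that of Bag3-WT mouse 3 stood above all fibroblast values, and Bag3-WT mice 1 and 3 differed little between cell types. The call was lost without Tg+ mouse 1, Tg+ mouse 2 or Bag3-WT mouse 2. Ptcd1 (0.30) and Ptcd3 (0.38), of the same repeat family, did not pass. Lrpprc and Slirp, partners that stabilise mitochondrial messages, had log2 fold changes of 0.59 (adjusted p = 0.0634) and 0.73 (adjusted p = 0.0880). Lrpprc was higher in cardiomyocytes of 6 of 6 mice and Slirp of 4. Pnpt1, the RNA-degrading polynucleotide phosphorylase, was at 0.72 (adjusted p = 0.0673), and its helicase partner Supv3l1 at −1.54 (SE 0.81, adjusted p = 0.152). Mtpap, the poly(A) polymerase, was at −0.91 (SE 0.35, adjusted p = 0.0538), below its fibroblast level in 5 of 6 mice. DESeq2 called Lrpprc and Pnpt1 higher and Mtpap lower, and limma voom called Lrpprc, Pnpt1 and Slirp higher. Elac2 and Trmt10c, which cut the 3′ and 5′ ends of tRNAs out of the long transcript (Trmt10c as a subunit of RNase P), were at 0.33 and −0.13, and Trmt10c at 0.28 with library size alone.

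Of the genes grouped under transcription, only Tfb1m passed, although TFB1M methylates the small ribosomal RNA of mitochondria. It had 5.29, 1.76, 3.03, 9.27, 3.34 and 0.769 nuclear CPM in cardiomyocytes against 1.16, 0.486, 1.88, 0.910, 0.676 and 0.402 in fibroblasts (3.80-fold, log2 1.93, SE 0.55, adjusted p = 0.0144). It was higher in 6 of 6 mice, but its counts were low (2.62 to 50.4 per cardiomyocyte column and 3.99 to 21 per fibroblast column), and the call was lost without Tg+ mouse 1 or without Bag3-WT mouse 1. The genes that start and extend transcription gave values nearer 0: Tfam, which also packages the genome, was at 0.37 (SE 0.22, adjusted p = 0.189), Tfb2m at 0.21 (SE 0.24), the polymerase Polrmt at 0.09 (SE 0.25) and the elongation factor Tefm at 0.01 (SE 0.36). Tfam had 15.6, 19.0, 24.6, 16.3, 31.0 and 16.7 nuclear CPM in cardiomyocytes and 16.7, 14.8, 17.2, 16.0, 16.6 and 11.8 in fibroblasts. These groups overlapped, and the order of the mice differed between the cell types. The mitochondrial messages themselves were at a median log2 fold change of 2.08 in the TMM-scaled fit of all genes, or 1.16 with library size alone.

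Of the copying genes, Polg, the catalytic subunit of the mitochondrial DNA polymerase, was the 1 gene lower in cardiomyocytes: 11.3, 14.6, 16.2, 19.3, 4.61 and 17.8 nuclear CPM against 22.5, 17.2, 41.5, 19.4, 17.2 and 27.4 (1.77-fold lower, log2 −0.83, SE 0.27, adjusted p = 0.0302). It was lower in 6 of 6 mice, by little in Bag3-WT mouse 1, and the call was lost on leaving out Tg+ mouse 1, Tg+ mouse 3, Bag3-WT mouse 2 or Bag3-WT mouse 3. Its accessory subunit Polg2 had 0, 6.65, 6.93, 1.36, 7.29 and 4.38 nuclear CPM in cardiomyocytes and 1.14, 0.525, 0, 0.694, 1.05 and 1.17 in fibroblasts. It was higher in 5 of 6 mice and did not pass (log2 2.20, SE 1.15, edgeR adjusted p = 0.144), though DESeq2 called it higher. Tg+ mouse 1 had 0 counts in both cardiomyocyte libraries, and without it the log2 fold change was 2.95 (adjusted p = 0.0239). Ssbp1, which coats single-stranded mitochondrial DNA, was at 0.42 (SE 0.28, adjusted p = 0.250). Exons of Fastk, Polg, Tfb1m and Tsfm overlap those of a gene on the other strand (Slc4a2, Fanci, Tiam2 and Avil). The sources used here do not say whether counting used strand, so reads from the overlapping stretches may not be told apart. How much of each gene overlaps was not measured. Tufm, Mtif2 and Ptcd2 have no such overlap in the annotation. Among genes without a call, Polg2, Slirp, Supv3l1, Gfm1, Elac2, Ptcd1 and Mtpap also overlap a gene on the other strand. Fastkd5 overlaps Ubox5 on the same strand.

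**Figure D5:**
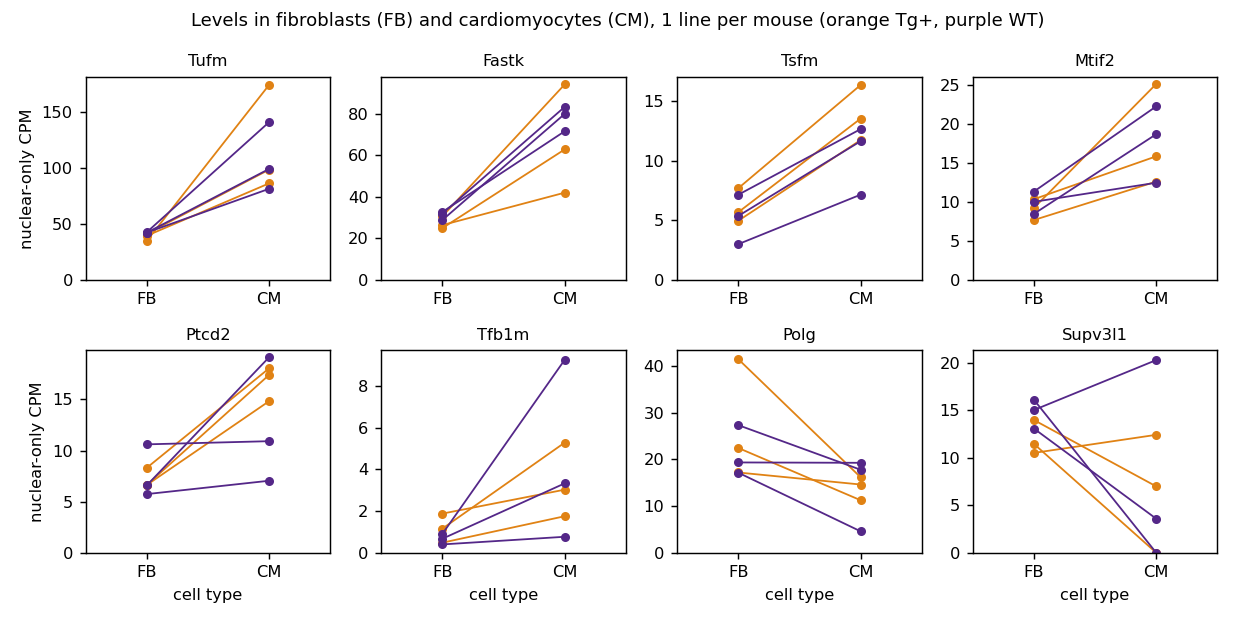
Level in nuclear-only CPM (TMM-scaled) of 8 nuclear genes in fibroblasts and cardiomyocytes, with 1 line per mouse. For Tufm, Fastk and Mtif2 all cardiomyocyte points lie above all fibroblast points, Polg falls in all 6 mice, and Supv3l1 is at 0 in the cardiomyocytes of Tg+ mouse 3 and Bag3-WT mouse 3.

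The 25 genes varied more between mice in cardiomyocytes. The coefficient of variation over the 6 mice (of nuclear CPM without TMM scaling) was larger in cardiomyocytes for 22 of 25 genes, with a median of 37.2% against 18.8% in fibroblasts, where nuclear counts were deeper. How many of all nuclear genes had a larger value in cardiomyocytes was not counted. The common biological coefficient of variation of the genotype fits is another measure, which leaves out counting error and the genotype difference. Over all nuclear genes it was 0.489 in cardiomyocytes and 0.284 in fibroblasts. Supv3l1 varied most, with 12.4, 6.98, 0, 20.3, 3.58 and 0 nuclear CPM in cardiomyocytes and 10.5, 14.0, 11.4, 15.0, 13.1 and 16.1 in fibroblasts. It had 0 counts in both libraries of Tg+ mouse 3 and of Bag3-WT mouse 3. In Tg+ mouse 1 rep1 held 0 counts and rep2 118.2. Of the 150 pairs of a nuclear gene and a mouse, 133 had counts in both cardiomyocyte libraries, 3 in neither and 14 in 1.

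By genotype, none of the 25 nuclear genes passed. In cardiomyocytes 24 were tested (Fastkd2 was filtered as too low) and 0 were called by edgeR, as were 0% of all 12114 nuclear genes. At an unadjusted p under 0.05 there were 0 of 24 (87 of all genes), and DESeq2 and limma voom called 0 of 24. The median log2 fold change was −0.09 (range −1.11 to 0.79) against 0.01 over all genes, or −0.34 against −0.04 without Tg+ mouse 3. Tefm had the lowest p (−1.11, SE 0.61, edgeR adjusted p = 1.00), with 3.36, 3.51 and 2.90 nuclear CPM in Tg+ and 4.68, 6.68 and 9.69 in Bag3-WT mice, which do not overlap. How many of all genes do not overlap was not counted. The Tefm values rest on 8 to 33 counts per column, with 0 in rep1 of Tg+ mice 1 and 3. Polrmt was at 0.79 (SE 0.46) with 21.0, 20.3 and 12.2 against 15.4, 7.95 and 7.67, and Gfm1 at −0.81 (SE 0.52) with 17.5, 12.2 and 9.25 against 28.6, 29.2 and 9.64. Both overlapped between genotypes, and their adjusted p was also 1.00. For Polrmt, Bag3-WT mouse 2 held 0 counts in rep1 and 26.2 in rep2.

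In fibroblasts 25 were tested and 0 were called by edgeR, DESeq2 or limma voom, as edgeR called 0% of all 13858. None had an unadjusted p under 0.05 (699 of all genes did). The median was 0.07 (range −0.71 to 0.87) against 0.02 over all genes, or −0.02 against 0.004 without Tg+ mouse 3. The lowest p-values were those of Tfb1m (0.87, SE 0.61, edgeR adjusted p = 0.786), Ptcd1 (0.29, SE 0.21, adjusted p = 0.789) and Tefm (−0.35, SE 0.26, adjusted p = 0.794). Tefm had 3.64, 4.68 and 3.94 nuclear CPM in Tg+ and 5.08, 5.06 and 6.14 in Bag3-WT fibroblasts, without overlap. These are the same mice as in the cardiomyocyte comparison, and the number of all genes without overlap was not counted. Tfb1m and Ptcd1 overlapped. The interaction test of a genotype effect that differs between cell types called 0 of 25 and 0% of 14223 genes. It had 0 of 25 and 138 of all genes at an unadjusted p under 0.05, with Polrmt lowest (0.71, SE 0.49), then Tfb2m (−0.64, SE 0.47) and Ptcd3 (−0.62, SE 0.57). DESeq2 and limma voom called 0 of 25.

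Other genes of mitochondrial gene expression were read from 6 lists by the same cell type test, in which 19.3% of all 14223 nuclear genes were called higher and 24.4% lower. Among ribosomal proteins of the mitochondrion, 30 of 82 were higher in cardiomyocytes and 1 lower (median 0.52). Mrpl14 (1.54, adjusted p = 2.56e-04), Mrps34 (1.62, adjusted p = 8.42e-04) and Mrpl51 (1.11, adjusted p = 0.00113) had the lowest edgeR p-values, and Mrps18b was lower (−1.14, adjusted p = 0.00639). Mrpl14 had 38.1 to 69.6 nuclear CPM in cardiomyocytes and 12.5 to 24.7 in fibroblasts, without overlap. Of other translation and insertion factors 6 of 18 were higher and 0 lower (median 0.38), led by Pdf, which removes the formyl group of new proteins (1.49, adjusted p = 3.78e-04), the release factor gene Mtrf1 (1.96) and the initiation factor gene Mtif3 (1.19). Of tRNA synthetases and the amidotransferase genes listed with them, 3 of 22 were higher (Pars2, 2.04; Qrsl1, 1.33; Ears2, 1.23) and 0 lower (median 0.29), a smaller share higher than among all genes.

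Other transcription and RNA-processing genes had 5 of 34 higher and 9 lower (median −0.23), near the 19.3% and 24.4% of all genes. Pde12, a phosphodiesterase that trims poly(A) tails in mitochondria, had 15.6 to 33.4 nuclear CPM in cardiomyocytes and 77.4 to 207.0 in fibroblasts (log2 −2.44, SE 0.18, edgeR adjusted p = 2.36e-06). Tbrg4 (FASTKD4, −1.40) and the pseudouridine synthase Pus1 (−1.37) were lower, and Hsd17b10, a subunit of mitochondrial RNase P (1.13), the oligoribonuclease Rexo2 (1.07) and the RNA-granule protein gene Grsf1 (0.96) higher. Of genes of copying, nucleotide supply and repair, 3 of 16, a share near that of all genes, were higher (the ligase Lig3, 0.91; the ribonucleotide reductase subunit Rrm2b, 0.72; the thymidine kinase Tk2, 0.93) and 1 was lower, the pyrimidine nucleotide carrier Slc25a33 (−1.38; median 0.03).

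Upstream regulators had 4 of 11 higher and 2 lower (median −0.14), beside 19.3% and 24.4% of all genes. The receptor gene Esrra had 65.0 to 118 nuclear CPM in cardiomyocytes and 30.5 to 50.1 in fibroblasts (log2 1.27, edgeR adjusted p = 3.50e-04), and Esrrb (2.00) and the coactivator gene Ppargc1a (2.06, adjusted p = 0.0346) were also higher, both at means under 5 nuclear CPM. The related coactivator gene Pprc1 was lower at 26.6 to 55.5 against 138 to 168 nuclear CPM (−1.90, adjusted p = 3.14e-05), as was Gabpb1, which encodes the partner of GABPA (−1.57, adjusted p = 1.38e-04). Gabpa, whose motif stood in 14 of the 24 promoter windows, was at −0.17 (adjusted p = 0.449). With library size alone the 6 counts were 52 and 0 (ribosome), 10 and 0 (translation), 9 and 0 (synthetases), 8 and 6 (RNA processing), 4 and 1 (copying) and 4 and 2 (regulators), higher and lower, where 4770 and 2250 of all 14223 genes were called. The median of the RNA-processing list was then 0.19, and that of the regulators 0.28. Without Tg+ mouse 3 the ribosome list had 42 higher, translation 8, synthetases 5 and RNA processing 6, and lower were 3 copying genes, 3 regulators and 8 RNA-processing genes. Of all 14549 genes then tested, 3318 were higher and 3569 lower. By genotype 0 genes of any of these lists were called by edgeR in either cell type.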

How the data were processed

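Per the labels' protocols, messenger RNA was enriched with oligo(dT), fragmented and sequenced, and cardiomyocyte samples had a further round of sequencing. The deposited table holds estimated counts (expected counts) per gene, 44.6% of them not whole. DESeq2 1.18.1, kallisto 0.44.0, R 3.4.4 and the build GRCm38.p6 are listed, with no role or order, in the submitters' processing notes. For the annotation and the strand of counting nothing is given in the sources used here. A second, normalized table was not used.

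The 2 cardiomyocyte libraries of a mouse were summed and rounded. By genotype, p-values measure the spread between mice. For cell type and the interaction, they measure how the difference between the cell types of a mouse varies from mouse to mouse. Cell type was tested within mice, genotype within each cell type, and their interaction in the layout with mice, with edgeR 4.0.16 in R 4.3.3 (filterByExpr, TMM, robust glmQLFit, glmQLFTest, two-sided, Benjamini-Hochberg adjusted p < 0.05 over all genes tested). Nuclear genes were fitted and given as CPM without the 13 mitochondrial genes, scaled by TMM over 12 columns. Marker sums are unscaled nuclear CPM. The 13 mitochondrial genes were fitted with the whole table and given as a share of all counts. The edgeR fits were tested on simulated data. Cell types were paired by the animal codes of the labels. Deviations of the cell types of a mouse correlated at a mean of 0.118 (0.00400 to 0.189).

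The 38 genes, the lists and the naming rule were chosen with earlier results of these data known. All 38 genes are named by cell type. By genotype the rule names the 3 nuclear genes and the mitochondrial gene with the lowest p, and of each list up to 3 genes per direction with the lowest p. Alternatives were DESeq2 1.42.0, limma 3.58.1 voom, no low-count filter, library size for TMM, mitochondrial genes kept, rep1 or rep2 alone, the letter F or M as a covariate, the replicate number as a block and leaving out each mouse. Gene positions came from GENCODE M21.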

Additional observations from a re-analysis of the deposited data

How the results depend on the processing

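The mitochondrial share by cell type kept its direction without each mouse in turn (32.3 to 42.0 percentage points). It then missed 0.05, since 5 mice allow no exact p below 0.0625. By genotype the share difference without each mouse in turn ran from −18.3 to −6.42 points in cardiomyocytes and from −22.0 to 2.54 in fibroblasts, where only the fit without Bag3-WT mouse 1 turned it. Nuclear genes called higher by cell type were 15 with library size alone and 4 to 9 under the other 12 alternatives. Called lower were 2 with DESeq2, 2 with rep2 libraries alone, 0 with library size alone and 0 to 1 without each mouse in turn. Fastk, Tufm and Mtif2 kept their call in all 13 alternatives. Polg lost it in 6 (adjusted p up to 0.269), Ptcd2 in 4 (up to 0.112), Tfb1m in 3 (up to 0.0761) and Tsfm with rep1 libraries alone (0.305). The cause of these losses was not tested.

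Genes without a call changed sign as follows. With rep1 libraries alone the log2 fold change by cell type was −0.19 for Tfam, −0.21 for Tfb2m, −0.40 for Polrmt, −0.60 for Tefm, 0.0391 for Fastkd5 and −0.0159 for Gfm1. Polrmt was at −0.0229 without Tg+ mouse 1 and −0.0494 without Tg+ mouse 2 (0.16 at most on leaving out a mouse). Tefm was at −0.0236 with no low-count filter, −0.0847 without Bag3-WT mouse 2 and −0.14 without Bag3-WT mouse 3 (0.13 at most). Trmt10c was at 0.28 with library size alone.

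The replicate number of the cardiomyocyte libraries pairs no mice across genotypes (same-number deviations correlated at a mean of 0.0139, from −0.454 to 0.420). With it as a replicate block, 0 nuclear and 0 mitochondrial genes were called in cardiomyocytes. A fit of the 12 libraries without the number, chosen after seeing the data, also called 0. All 13 mitochondrial genes had an unadjusted p under 0.05 in both fits of libraries (median −1.08 in each). How many of all genes did so was not counted. The 2 libraries of a mouse differed in mitochondrial share by only 0.0773 to 1.78 percentage points. Both fits use 1 within-mouse correlation for all genes, so these p-values can be too small. With the mouse as the replicate, edgeR had 0 of 13 under 0.05. With the letter F or M as a covariate 0 genes were called in either cell type. In fibroblasts all 13 mitochondrial genes then had an unadjusted p under 0.05 (median −1.66). How many of all genes did so was not counted. That fit has Bag3-WT mouse 1 as its only Bag3-WT mouse with F. Without that mouse and without the letter, the fibroblast median was 0.17, with 11 of 13 above 0. Depth limits the cardiomyocyte columns most, where 3 counts stand for up to 1.33 nuclear CPM.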
